A study of Rattus norvegicus with 6 samples.

Results

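Colony-stimulating factors and blood niche cytokines are secreted or membrane-bound proteins through which marrow stromal cells keep blood progenitors and myeloid cells alive and dividing. The genes followed here were Csf1, Csf2, Csf3, Il34, Kitlg, Flt3lg, Il7, Il15 and Angpt1, taken by symbol from a deposited gene table of 19266 genes. 8 of the 9 symbols were in that table, and Flt3lg was not analysed here. The table comes from mesenchymal stem cells of rat bone marrow (cell line SCSP-402, genotype WT) grown together with mouse BV2 cells, a line of microglia. 3 libraries came from co-culture given lipopolysaccharide (LPS), a component of bacterial walls sensed by toll-like receptor 4, and 3 from the same co-culture without LPS. All 6 libraries thus share the presence of microglial cells, and the labels put them in 1 batch. The stated aim was to learn how the stem cells restrain microglia. The labels give no LPS dose, no duration and no word on whether replicates were separate cultures, so the p-values cover the spread between libraries alone, and that spread may be technical.

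The factors act through receptors on the target cell. Csf1 (M-CSF) and Il34 share the receptor Csf1r, on which microglia and macrophages depend, while Csf2 (GM-CSF) and Csf3 (G-CSF) drive the formation and activation of macrophages and neutrophils. Kitlg, also called stem cell factor, signals through Kit and is a defining product of the marrow niche, as is Angpt1, the activating ligand of the endothelial and stem cell receptor Tek. Il7 and Il15 sustain lymphocytes, Il15 above all natural killer cells, and Il15 is usually shown to neighbouring cells bound to Il15ra. In many stromal cells Csf2 and Csf3 are silent until an inflammatory signal switches on transcription and stabilises their short-lived mRNA.

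RefSeq promoter windows of 300 bases in the GRCr8 build, from 250 bases before to 50 bases after the gene start, were found for 3 of the 8 genes, Csf2, Il15 and Kitlg. The windows of Csf2 and Kitlg are shown because Csf2 was detected only in LPS libraries, while Kitlg differed little between the groups. They were thus chosen by outcome, and motif matches in the Il15 window are not given. Both read 5′ to 3′ on the strand of the gene. Csf2 lies at chr10:38889624-38889923 on the minus strand and Kitlg at chr7:36782410-36782709 on the plus strand. Capitals mark the matches to the motifs searched.
Csf2: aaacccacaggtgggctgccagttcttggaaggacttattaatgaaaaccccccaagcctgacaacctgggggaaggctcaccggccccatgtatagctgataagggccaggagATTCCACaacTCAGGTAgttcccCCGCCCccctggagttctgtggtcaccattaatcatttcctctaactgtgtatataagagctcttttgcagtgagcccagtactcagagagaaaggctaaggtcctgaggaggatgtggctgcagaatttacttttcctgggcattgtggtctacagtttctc
Kitlg: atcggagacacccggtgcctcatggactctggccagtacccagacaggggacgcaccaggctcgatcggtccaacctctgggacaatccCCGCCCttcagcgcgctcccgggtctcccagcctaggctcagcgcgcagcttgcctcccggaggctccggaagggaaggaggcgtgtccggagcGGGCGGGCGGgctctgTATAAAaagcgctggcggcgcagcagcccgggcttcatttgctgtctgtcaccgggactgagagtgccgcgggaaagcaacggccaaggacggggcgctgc
Distances are counted from the start of each RefSeq entry. The Csf2 bases after that start open with ATG and hold no stop codon in that frame. Its start may thus be that of the coding sequence and not of transcription, so its distances may not compare with those of Kitlg. In the Csf2 window the letters ATTCCAC begin 136 bases before the start. They match the core of the cytokine element CK-1, which is known from Csf2, Csf3 and Il3 promoters. The element CK-2, TCAGGTA, follows 126 bases before the start, with a GC box (GGGCGG, here on the other strand as CCGCCC) beginning 113 bases before it. The CK-1 core occurred in 3.08% and CK-2 in 2.66% of all 33469 RefSeq windows of this length, counting both strands, against 33.1% for the GC box. The Kitlg window held neither cytokine element. It held a TATA box, TATAAA, 51 bases before the start (14.2% of all windows), and GC boxes at 161, 67 and 63 bases before the start, the last pair overlapping. Neither window matched the NF-kB consensus or the AP-1 motif TGANTCA, which occurred in 7.51% and 7.33% of all windows. These matches describe letters only, and the motifs were chosen with the sequences in view.

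With LPS the co-cultures held more RNA of Csf1, Csf3, Angpt1 and Il15, and the level of Kitlg differed little. Of the 8 genes, 5 passed a minimum of 1 FPKM, a fragment count scaled to gene length and library size, in at least 3 libraries and were tested, and 4 of these 5 rose while 0 fell. Over all 11559 tested genes 20.1% rose and 19% fell, with an adjusted p under 0.05 in edgeR's quasi-likelihood test. Csf3 passed the minimum through its LPS libraries alone, so it could enter only as a rise, whereas Csf1, Angpt1, Il15 and Kitlg passed in both groups. For 6 of the 8 genes every LPS library exceeded every untreated one, where 23.1% of the 19266 genes in the table did so. The median log2 fold change was 0.94 over the 5 tested genes and 0.00 over all tested genes. In bulk RNA a change in the number of cells of one kind and a change in the RNA held by each cell cannot be told apart.

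**Figure D1:**
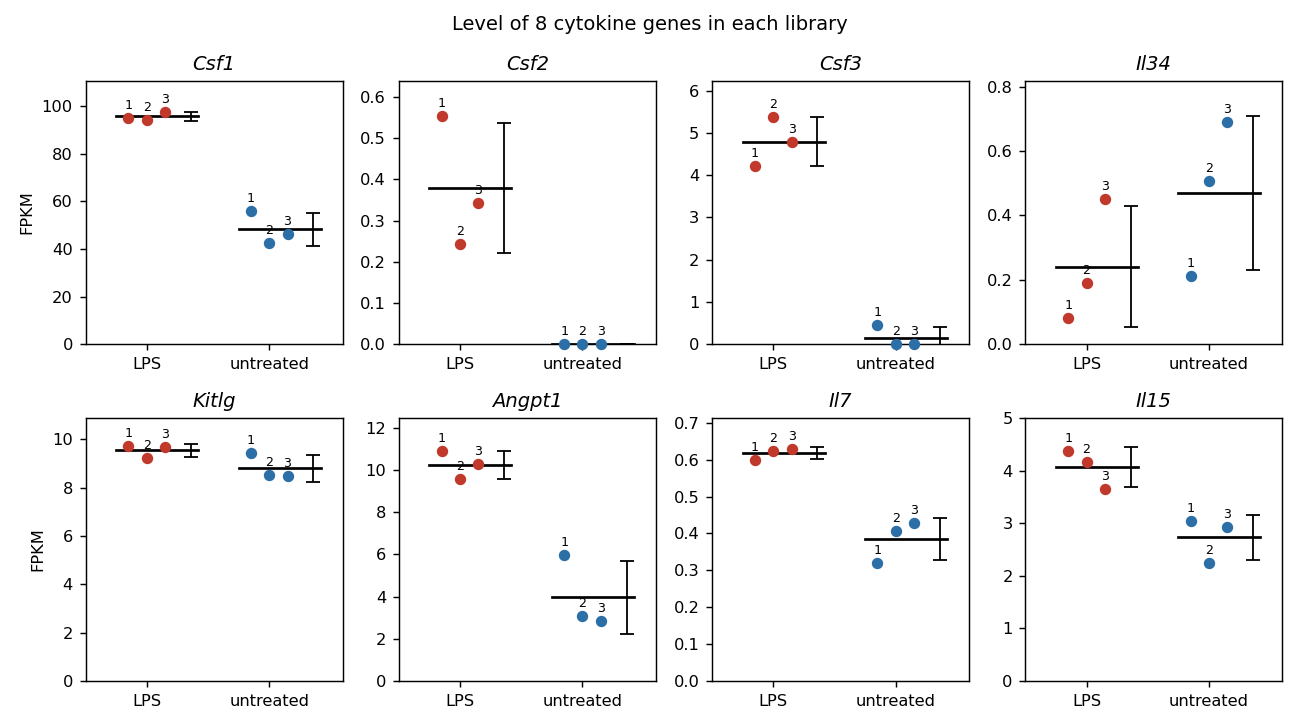
FPKM of each gene in each library, with the LPS libraries left of the untreated ones. Points are libraries numbered by replicate, horizontal lines are means and bars are SD over 3 libraries, and each panel has its own axis from 0. Groups overlap only for Il34 and Kitlg, and of the untreated libraries replicate 1 is the highest for Csf1, Csf3, Kitlg, Angpt1 and Il15.

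Depth was similar in the groups. The LPS libraries held 79.1 M to 82.0 M count units and the untreated libraries 77.4 M to 80.8 M, where 1 sequenced fragment was taken as about 4 units. This scale was inferred from an excess of multiples of 4 among low counts and is not given by the sources used here, and every fragment number, interval and floor below depends on it. Along the first principal component (76.5% of the variance) LPS libraries were placed from -22.5 to -19.5, untreated replicates 2 and 3 at 26.7 and 26.6, and untreated replicate 1 at 11.0. Untreated replicate 1 therefore stood part of the way towards LPS, at a median of 19.4% of the distance over the 4524 genes past the test. The quartiles were -5.98% and 37.7%, so the position differed between genes and for some lay away from LPS. Of 10 tested markers of marrow stromal cells 6 rose and 3 fell (20.1% and 19% over all tested genes). Pdgfra rose 2.90-fold (adjusted p = 0.00031 by edgeR), Nt5e 2.73-fold (0.000357) and Prrx1 1.82-fold (0.00118). Those that fell were Col1a2, 1.54-fold lower (0.000132), Col1a1, 1.33-fold lower (0.000229), and Itgb1, 1.24-fold lower (0.00119). Col1a2 was not called by limma after quantile normalization (0.083). The part of these shifts in the results below was not tested. Thy1 was abundant, at 278 to 284 FPKM with LPS and 237 to 241 FPKM without, while Vcam1 averaged 0.881 FPKM with LPS and 0.190 FPKM without, and Lepr stood at 0.0836 to 0.209 FPKM over all 6 libraries. Of 16 microglia and macrophage markers in the table, 13 stayed below 1 FPKM in every library. Ptprc, Cx3cr1 and C1qa never exceeded 0.0455 FPKM. The summed marker level was 82.7 to 109.6 FPKM with LPS and 74.4 to 83.3 FPKM without, nearly all of it from Tmem119, Fcer1g and Cd14. Fcer1g varied widely, at 27.4, 2.29 and 2.98 FPKM with LPS and 9.62, 1.20 and 7.01 FPKM without (adjusted p = 0.541 by edgeR). The highest sum thus came with the high Fcer1g of LPS replicate 1. Tmem119 did not pass either (adjusted p = 0.413 by edgeR), while Cd14 was 1.29-fold higher (0.0412). How far reads from the mouse cells were counted on the rat genome was not tested.

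Csf1, the main survival factor of macrophages and microglia, was the most abundant of the factors in every library and nearly doubled with LPS. Its FPKM was 95.1, 94.4 and 97.7 in the LPS libraries, against 55.9, 42.6 and 46.3 in the untreated libraries. The groups were far apart, and the LPS libraries agreed closely. The mean was 95.7 ± 1.75 FPKM with LPS and 48.3 ± 6.87 FPKM without (SD, n = 3 each), a log2 fold change of 0.94 ± 0.087 (SE; adjusted p = 0.00015 by edgeR). Untreated replicate 1 stood above untreated replicates 2 and 3 by 22.4% of their distance to the LPS mean, and without it the fold was 2.08 in place of 1.92. 370 tested genes had a larger log2 fold change. Csf1 (ENSRNOG00000018659) spans bases 195377215 to 195411704 of chromosome 2, minus strand, in the mRatBN7.2 build, as are all gene positions given here. It is listed with 3 transcripts.

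Il34, the other ligand of Csf1r, was expressed far below Csf1 and did not follow it. It stood at 0.0826, 0.190 and 0.450 FPKM with LPS, against 0.213, 0.507 and 0.690 FPKM without. The groups overlap, since LPS replicate 3 lay above untreated replicate 1. These values rest on 26.8 fragments over the LPS libraries and 51.0 over the untreated ones. Il34 did not reach 1 FPKM in any library and was not tested, and a fit without that minimum gave a log2 fold change of -1.01 ± 0.65 (SE), adjusted p = 0.333 by edgeR. The gene (ENSRNOG00000017602) spans bases 38714991 to 38764000 of chromosome 19, minus strand. From the fragments the ratio of LPS to untreated was 0.52, with an exact 95% interval from 0.32 to 0.85 that covers counting error only. That interval lies below 1, but the fit, which also takes in the spread between libraries, did not call Il34.

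Csf3, which drives neutrophil formation and release, was nearly absent without LPS and moderately expressed with it. It stood at 4.21, 5.39 and 4.79 FPKM with LPS, against 0.448, 0 and 0 FPKM without. The only untreated library with any Csf3 was replicate 1, with about 13 fragments, where the LPS libraries together held 416.8. From these fragments the ratio was 31.8, with an exact 95% interval from 18.4 to 60.1 that covers counting error only. Its log2 fold change of 4.93 ± 0.89 (SE) passed (adjusted p = 0.00298 by edgeR). 2 tested genes had a larger one. DESeq2 did not call it (adjusted p = 0.0776). Without untreated replicate 1, and with a floor of 3 fragments set over the remaining untreated libraries, the ratio was 91.0. That value leaves out counting error in the LPS libraries. Csf3 (ENSRNOG00000008525) spans bases 83661207 to 83663603 of chromosome 10, plus strand.

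Csf2, which supports macrophages, granulocytes and dendritic cells, was detected with LPS and in no untreated library. It stood at 0.553, 0.243 and 0.342 FPKM with LPS, and was listed at 0 in all 3 untreated libraries. The LPS libraries together held about 18.3 fragments, a ratio of 6.02 against a floor of 3 fragments over the untreated group. That value leaves out counting error in the LPS libraries. The exact 95% interval of the ratio from the fragments began at 4.35 and covers counting error only. Csf2 stayed below 1 FPKM in every library and was not tested in the main comparison. In the fit without that minimum it passed (adjusted p = 0.00943 by edgeR), where 11.9% of all 19266 genes were called higher. Csf2 (ENSRNOG00000026805) spans bases 38386945 to 38389199 of chromosome 10, minus strand, and its RefSeq window is the one shown above with the CK-1 and CK-2 letters. Even with LPS its mean of 0.379 ± 0.159 FPKM was lower than that of Csf3, at 4.80 ± 0.586 FPKM (SD, n = 3 each).

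Kitlg, the niche factor for blood stem cells, mast cells and melanocytes, kept nearly the same level. It stood at 9.75, 9.22 and 9.67 FPKM with LPS, against 9.45, 8.52 and 8.47 FPKM without. The groups overlap at untreated replicate 1. Its log2 fold change of 0.07 ± 0.055 (SE) did not pass (adjusted p = 0.372 by edgeR) and stayed between 0.04 and 0.12 when each library was left out in turn. Kitlg (ENSRNOG00000005386) spans bases 34896053 to 34977214 of chromosome 7, plus strand. Because both genes were read in the same libraries, their ratio does not depend on scaling between libraries. The ratio of Csf1 to Kitlg FPKM was 9.75, 10.2 and 10.1 with LPS, against 5.91, 5.00 and 5.47 without. Every LPS library lay above every untreated library in this ratio (exact two-sided permutation p = 0.1, the smallest that 3 against 3 libraries allow).

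Angpt1, which stabilises vessels and keeps blood stem cells quiet through Tek, rose 2.50-fold. Its FPKM was 10.9, 9.58 and 10.3 with LPS, against 5.97, 3.07 and 2.83 without. Untreated replicate 1 held more than the other untreated libraries and stood 41.4% of the way to the LPS mean. The means were 10.3 ± 0.665 FPKM with LPS and 3.96 ± 1.75 FPKM without (SD, n = 3 each), with a log2 fold change of 1.32 ± 0.25 (SE) and an adjusted p of 0.00363 by edgeR. Without untreated replicate 1 the fold was 3.34. Angpt1 (ENSRNOG00000005854) spans bases 73531486 to 73784067 of chromosome 7, minus strand. The ratio of Angpt1 to Kitlg was 1.12, 1.04 and 1.06 with LPS, against 0.632, 0.361 and 0.335 without, so Angpt1 was close to Kitlg with LPS and below it without.

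Il15 rose modestly and Il7 remained low. Il15, a growth factor of natural killer and memory T cells, stood at 4.38, 4.17 and 3.65 FPKM with LPS, against 3.04, 2.24 and 2.92 FPKM without. All LPS values were higher, by a log2 fold change of 0.52 ± 0.16 (SE), adjusted p = 0.0291 by edgeR. This call was lost without LPS replicate 1 (adjusted p = 0.0956), LPS replicate 2 (0.0817) or untreated replicate 2 (0.0869). Il7, a stromal factor for developing B and T cells, stood at 0.600, 0.623 and 0.630 FPKM with LPS, against 0.319, 0.407 and 0.428 FPKM without. Those groups are also separate, yet no library reached 1 FPKM, and the fit without that minimum gave a log2 fold change of 0.64 ± 0.21 (SE), adjusted p = 0.0689 by edgeR. Il15 (ENSRNOG00000003439) spans bases 25640251 to 25706820 of chromosome 19, plus strand, and Il7 (ENSRNOG00000011973) bases 94234766 to 94280075 of chromosome 2, plus strand.

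In order of FPKM, the level per gene length, the LPS libraries ran from Csf1 through Angpt1, Kitlg, Csf3, Il15, Il7 and Csf2 to Il34. Neighbours whose libraries overlapped in that order were Angpt1 and Kitlg, Csf3 and Il15, and Csf2 and Il34. Without LPS the order was Csf1, Kitlg, Angpt1, Il15, Il34, Il7, Csf3 and Csf2. There Angpt1 overlapped Il15, and Il34, Il7, Csf3 and Csf2 overlapped each with the next. The 8 genes summed to 124 to 127 FPKM with LPS and 57.4 to 75.4 FPKM without. Csf1 made up 76.2% ± 0.456 of that sum with LPS and 74.5% ± 0.499 without (SD, n = 3 each). None of the 8 genes overlapped another gene of the table in position.

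Receptors for these factors were mostly at the edge of detection. In no library did Csf1r, Csf2rb, Csf3r, Kit, Il7r, Il15ra or Il2rb reach 1 FPKM. Csf1r stood at 0.0630, 0.0622 and 0.0755 FPKM with LPS and at 0.176, 0.124 and 0.0588 FPKM without, and its groups overlap. 3 of the listed receptors and co-receptors reached that minimum. One was Csf2ra, the GM-CSF receptor alpha chain, at 4.46 ± 0.282 FPKM with LPS and 4.13 ± 0.179 FPKM without (SD, n = 3 each; adjusted p = 0.486 by edgeR), although the signalling chain Csf2rb averaged 0.0368 FPKM with LPS and 0.0205 FPKM without. Crlf2, the receptor chain for thymic stromal lymphopoietin that pairs with Il7r, stood at 9.35, 9.09 and 9.44 FPKM with LPS, against 8.55, 6.65 and 7.15 FPKM without (adjusted p = 0.0755 by edgeR, and 0.0113 without untreated replicate 1). Tek, the Angpt1 receptor, was lower with LPS, at 0.268, 0.208 and 0.267 FPKM against 0.594, 0.768 and 0.603 FPKM without. Tek was below the minimum, and the fit without it gave a log2 fold change of -1.43 and an adjusted p of 0.00158 by edgeR, where 10.9% of all genes were called lower. In the same fit Ptprz1, a phosphatase reported to bind Il34, was higher, at 0.686, 0.507 and 0.442 FPKM with LPS against 0.220, 0.0970 and 0.0459 FPKM without (log2 fold change 2.12 ± 0.47 SE, adjusted p = 0.0136 by edgeR), where 11.9% of all genes were called higher. Of 15 receptors and co-receptors listed, 13 were in the table, 3 were tested, 1 rose and 0 fell, beside 20.1% and 19% over all tested genes. Without untreated replicate 1, and by limma on log2(FPKM + 1), 2 rose. The gene that rose in the main comparison was Sdc1, a heparan sulfate proteoglycan reported to bind Il34, at 64.7 ± 1.72 FPKM with LPS and 50.2 ± 1.03 FPKM without (SD, n = 3 each; log2 fold change 0.32 ± 0.043 SE, adjusted p = 0.000762 by edgeR).

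**Figure D2:**
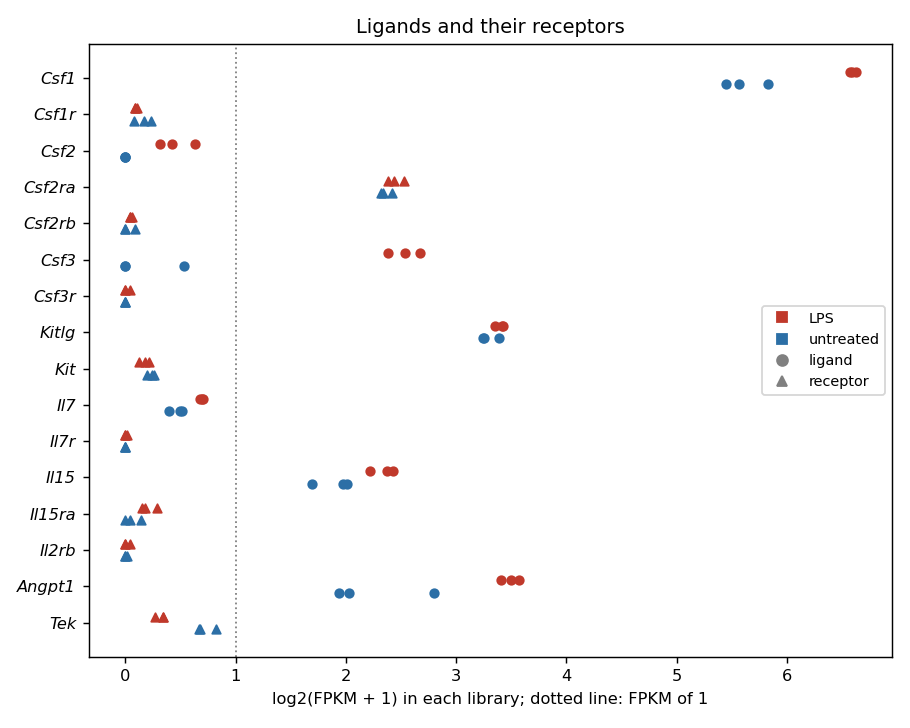
Level of 7 ligands (circles) and their main receptors (triangles) in each library as log2(FPKM + 1), with LPS libraries drawn above untreated ones in each row. Of the receptors drawn only Csf2ra lies right of the dotted line at 1 FPKM, while Csf1, Kitlg, Il15 and Angpt1 lie right of it in all 6 libraries.

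Other stromal products of the blood niche changed in both directions. Of 25 listed cytokines and niche factors, 16 were in the table and 12 were tested, of which 5 rose and 2 fell (20.1% and 19% over all tested genes). Their median log2 fold change was 0.37, beside 0.00 over all tested genes. Cxcl12, the chemokine that holds blood stem cells in the marrow, stood at 140.3, 141 and 137 FPKM with LPS, against 35.1, 12.2 and 13.9 FPKM without. It rose 6.64-fold (adjusted p = 0.000706 by edgeR), or 10.3-fold without untreated replicate 1, which held more than the other untreated libraries. Il6 rose 5.74-fold (adjusted p = 0.00561), or 11.8-fold without that library. Spp1 (osteopontin), a matrix protein of the bone surface niche and the most abundant of the list, averaged 267 ± 19.5 FPKM with LPS and 132 ± 10.9 FPKM without (SD, n = 3 each).

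Jag1, a Notch ligand of niche cells, moved the opposite way. It stood at 4.79, 4.83 and 6.11 FPKM with LPS, against 11.4, 21.7 and 23.9 FPKM without, a log2 fold change of -1.91 ± 0.25 (SE), adjusted p = 0.000655 by edgeR. Angpt4, a Tek ligand related to Angpt1 and named here after its values were seen, rose 2.63-fold (adjusted p = 0.000569), beside 2.50-fold for Angpt1. Its FPKM was 5.79, 6.33 and 6.31 with LPS, against 2.99, 1.80 and 1.98 without. Angpt2, often an antagonist at Tek, did not exceed 0.0580 FPKM in any library. Both angiopoietins above 1 FPKM were thus higher with LPS.

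**Figure D3:**
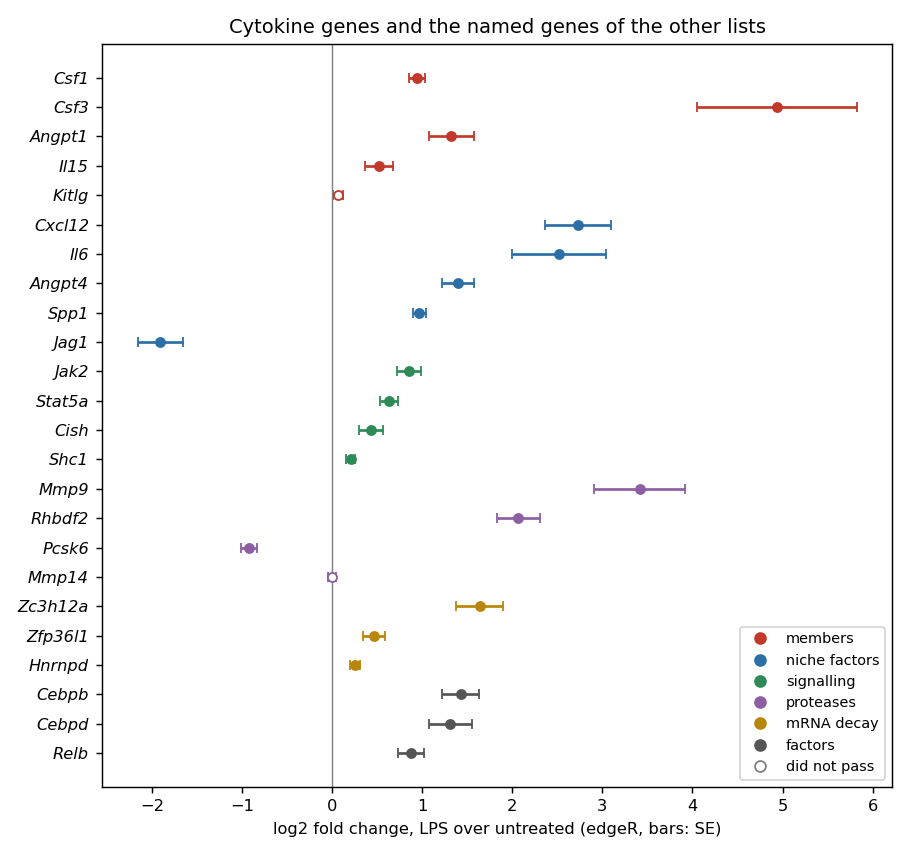
Log2 fold change, LPS over untreated, of the 5 tested cytokine genes and of named genes from the other lists, as points with SE bars from edgeR over 3 libraries per group. Filled points passed the test and open points did not. Csf3 has the largest value, at 4.93, while Jag1 and Pcsk6 lie left of 0.

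Genes that carry the signal inside receiving cells were listed as well. Of 15 tested signal transducers, 6 rose and 0 fell (20.1% and 19% over all tested genes), with a median log2 fold change of 0.00. Jak2, the kinase used by the Csf2 receptor, rose 1.81-fold (adjusted p = 0.00149 by edgeR), and Stat5a, a transcription factor it activates, 1.55-fold (0.00145). Cish, a Stat5 target and inhibitor, rose 1.35-fold (adjusted p = 0.0338), a call lost without LPS replicates 1 or 3 or untreated replicates 2 or 3 (up to 0.12). The adaptor Shc1, the most abundant of the list, was 1.16-fold higher (adjusted p = 0.0108), which limma after quantile normalization did not call (0.13). With a library size taken without the 50 most abundant genes the same list had 5 higher and 2 lower.

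Csf1 and Kitlg are made partly as membrane proteins that proteases release. Of 10 tested shedding and processing proteases, 4 rose and 2 fell (20.1% and 19% over all tested genes). By limma on log2(FPKM + 1) 7 rose and 1 fell. Mmp9, a gelatinase that frees Kitlg in mouse marrow, stood at 10.7, 10.2 and 7.91 FPKM with LPS, against 1.76, 0.373 and 0.482 FPKM without. It rose 10.6-fold (adjusted p = 0.00115 by edgeR), or 21.6-fold without untreated replicate 1. Only that untreated library reached 1 FPKM, so Mmp9 met the minimum through its LPS libraries and could hardly enter as a fall. Rhbdf2, the iRhom protein that matures the sheddase Adam17, rose 4.19-fold (adjusted p = 0.000366), and Adam17 itself, named after its values were seen, 1.52-fold (0.000272). The proprotein convertase Pcsk6 was 1.89-fold lower (adjusted p = 0.000176, log2 fold change -0.92 ± 0.089 SE), and the membrane protease Mmp14, the most abundant of the list, stood at 194 ± 3.90 FPKM with LPS and 188 ± 4.58 FPKM without (SD, n = 3 each; adjusted p = 0.981). RNA levels do not show how much Kitlg or Csf1 was released.

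Factors that set the life of cytokine mRNA and the activity of cytokine promoters were also measured. Of 10 tested mRNA decay and stability factors 3 rose and 0 fell (20.1% and 19% over all tested genes), with a median log2 fold change of 0.02. Zc3h12a (regnase-1), an RNase that cuts cytokine mRNA, rose 3.11-fold (adjusted p = 0.00163 by edgeR). Zfp36l1, a binder of AU-rich elements and the most abundant of the list over all 6 libraries but not without LPS, rose 1.38-fold (adjusted p = 0.0182), a call lost without LPS replicates 1 or 3 or untreated replicates 2 or 3 (up to 0.0623) and after quantile normalization (0.0541). Hnrnpd (AUF1) was 1.19-fold higher (adjusted p = 0.00754). Among 14 tested transcription factors 8 rose and 2 fell (the same shares apply), with a median log2 fold change of 0.41. Cebpb and Cebpd, acute-phase factors, rose 2.69-fold (adjusted p = 0.00106) and 2.48-fold (0.00307), and the NF-kB subunit Relb 1.83-fold (0.00198). Cebpd was the most abundant over all 6 libraries, at 136 ± 8.01 FPKM with LPS and 53.1 ± 22.3 FPKM without (SD, n = 3 each), where Jun was level with it at 53.3 ± 3.90 FPKM.

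Genes closest in pattern were sought for Csf3 and Angpt1, the members past the test with a log2 fold change of at least 1. Likeness was the Euclidean distance of log2(FPKM + 1) over the 6 libraries, each gene centred on its own mean, which all genes share through the same libraries. Nearest to Csf3 were Scube3, a secreted and cell surface protein (distance 0.333), the pentraxin Ptx3 (0.350) and the secreted phospholipase Pla2g2a (0.360). Pla2g2a averaged 3.66 FPKM with LPS and 0.0842 FPKM without. Nearest to Angpt1 were Ugcg, the ceramide glucosyltransferase (0.140), the monooxygenase Fmo4 (0.177) and the glucose transporter Slc2a1 (0.186).

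**Figure D4:**
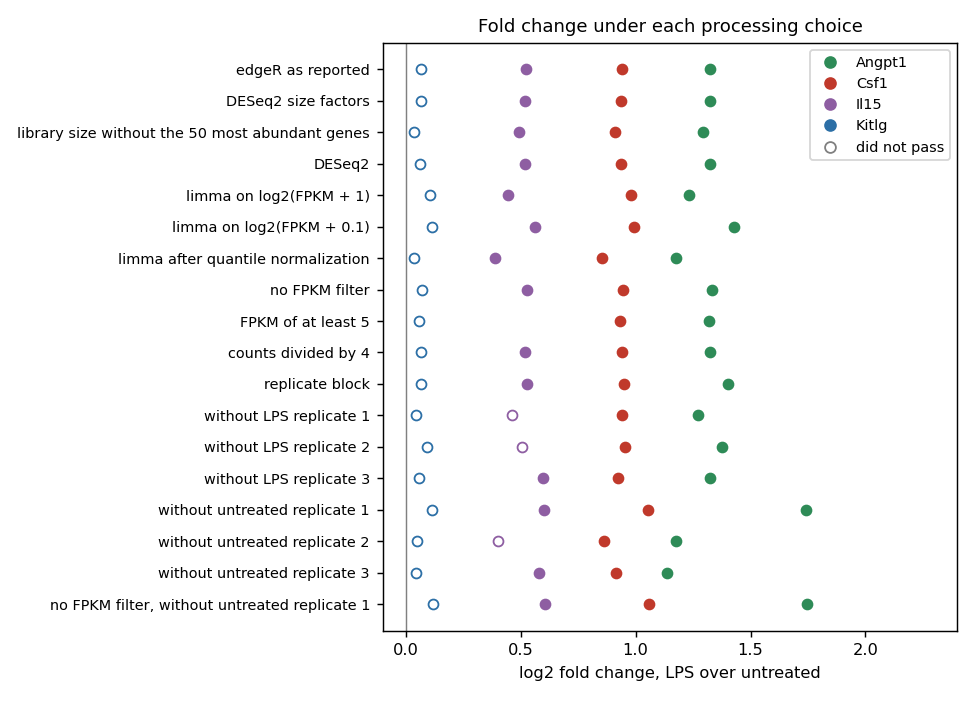
Log2 fold change, LPS over untreated, of Angpt1, Csf1, Il15 and Kitlg (colours) under each processing choice (rows). Filled points passed an adjusted p of 0.05 and open points did not. Csf1 stays between 0.85 and 1.06, Angpt1 moves to 1.74 without untreated replicate 1, and Il15 loses its call when any of 3 libraries is left out.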

How the data were processed

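The deposited table holds, for every gene and library, an estimated count and a value in FPKM, both made by the authors. The submitters' processing notes name the build mRatBN7.2 and the tools cutadapt 1.9, HISAT2 2.2.1, StringTie 2.1.6, edgeR and DESeq2. The annotation release, the use of strand and the origin of the counts were not given in the sources used here. The deposited expected counts are whole, but 31.9% to 32.9% of those from 1 to 40 were multiples of 4 (25% by chance), so 1 fragment was taken as about 4 units. The design assumed raw counts, and these estimated counts took their place, rounded (which changed nothing).

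Genes that reached 1 FPKM in 3 or more libraries were tested by edgeR's quasi-likelihood test (4.0.16, TMM factors, group as the only term) with Benjamini-Hochberg adjustment over all 11559 genes. Standard errors were derived from F, as the absolute log2 fold change over its square root. limma 3.58.1 and DESeq2 1.42.0 served as alternatives, with scipy 1.17.1 for exact tests, in R 4.3.3 and Python 3.11.15. Simulated counts with known changes served to test the fit. The rule for named genes took all members, and from each list its most abundant gene and the 3 called genes that changed most. Other receptors of the members are given as their partners. Members and lists were chosen with earlier results of these data known.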

Additional observations from a re-analysis of the deposited data

How the results depend on the processing

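Csf1 and Angpt1 passed in all 17 alternatives run for each, with log2 fold changes of 0.86 to 1.05 and 1.14 to 1.74 on leaving out each library. Kitlg passed in none of 17 (0.04 to 0.12, adjusted p from 0.0831 to 0.625). Csf3 passed in 15 of 16, the exception being DESeq2 (log2 fold change 4.97, adjusted p = 0.0776). Its fitted value ran from 4.35 to 12.1 on leaving out each library, the last without untreated replicate 1, where untreated Csf3 is 0 and the fitted value is no bound. Il15 passed in 13 of 16, with 0.40 to 0.60 on leaving out each library. With an FPKM minimum of 5, 2 members passed in place of 4, because fewer genes were tested. Without a minimum Csf2 passed (log2 fold change 7.58, adjusted p = 0.00943), also without untreated replicate 1, an alternative added after seeing the data (7.58, 0.0101). From 3405 to 5054 genes were called on leaving out each library, against 4524.

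Rises were 51.3% of calls by edgeR, 63.3% by limma on log2(FPKM + 1), 44.7% after quantile normalization and 44.3% with library size without the 50 most abundant genes. No scaling moved the median of all genes by more than 0.1 on the log2 scale. Libraries with the same replicate number correlated at 0.0689, 0.0846 and 0.125 in their deviations from the group means, so the numbers were not taken as pairs, although each library correlated best with its own number, a hint from the data only. With the replicate block 4184 genes and 4 members passed (Csf1 0.95, Csf3 5.37, Angpt1 1.40, Il15 0.53 and Kitlg 0.07 on the log2 scale). The call of Cish was lost there (adjusted p = 0.0651). Il34, Csf2 and Il7 rest on few fragments, and how far depth limits their results was not tested. Without a library the exact tests cannot go below p = 0.2.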
